A study of Mus musculus with 6 samples.

Results

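Transforming growth factor beta (Tgf-beta) signalling was examined in whole mouse pancreas at E12.5, a stage given in days of embryonic development, through 10 genes: the ligands Tgfb1, Tgfb2 and Tgfb3, the receptors Tgfbr1, Tgfbr2 and Tgfbr3, the latent binding protein genes Ltbp1, Ltbp3 and Ltbp4, and Tgfbi. They were taken by name, as every probe set whose platform annotation gives 1 of these symbols and no other, which yielded 27 of 45037 probe sets and 10 of 18193 genes. The control group was 3 wild type samples and the other group 3 Hox6 null samples, all of the strain labelled Bl6, with 1 array per sample. Hox6 denotes the paralogous homeodomain transcription factor genes Hoxa6, Hoxb6 and Hoxc6; the labels give neither the alleles nor how many embryos went into a sample, and call the samples biological replicates.

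Tgf-beta ligands are secreted with their own propeptide wrapped around them, which keeps them latent. Latent binding proteins (Ltbp) tie this complex to the matrix, and integrins and other proteins set the ligand free. Free ligand binds Tgfbr2, which recruits and phosphorylates Tgfbr1; Tgfbr3 (betaglycan) presents ligand to this pair, and the signal reaches the nucleus through Smad2, Smad3 and Smad4. In the embryonic pancreas the pathway is known for its part in the growth and differentiation of the epithelium and in the matrix of the surrounding mesenchyme.

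Values are log2 expression values of a probe set, so that a difference of 1 is a doubling, and levels of different probe sets are not comparable with each other. Differences are null minus control with the standard error (SE) of limma, and adjusted p-values are Benjamini-Hochberg values of limma over all probe sets unless stated otherwise. Pairs of control arrays correlated at 0.994 to 0.995 over probe sets and pairs of null arrays at 0.980 to 0.987. Null replicates 1 and 2 stood apart from all other arrays in epithelial genes: the mean level of 13 epithelial genes was 9.59 and 9.46 in these, 8.63 in null replicate 3 and 8.59 to 8.64 in controls. As for the tissue label, the mean level of 10 pancreatic progenitor genes, among them Cpa1 and Nkx6-1, was 7.58 to 7.94 in control and 7.88 to 8.95 in null arrays; since the levels of other marker lists also lay above the array medians of 5.97 to 6.02, these levels do not check the label. Of the targeted genes, Hoxa6 had 0 probe sets annotated to it alone and was not analysed here. Hoxb6 read 9.04 ± 0.29 in controls against 8.62 ± 0.34 in null arrays (SD, n = 3 each), and the 3 probe sets of Hoxc6 were higher in null arrays by 0.13, 0.73 and 0.47, with adjusted p between 0.253 and 0.551; where these probe sets lie relative to the disrupted part of each gene is not given in the sources used here, so they check nothing.

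None of the 10 genes passed the test, but 5 of them had every null array below every control array: the ligand Tgfb1, the receptors Tgfbr2 and Tgfbr3, the latent binding protein Ltbp4 and the matrix protein Tgfbi. The differences of these 5 ran from -0.39 for Tgfbr3 to -0.998 for Tgfb1. Tgfb3 was lower on average with overlapping arrays, Tgfb2 had no common direction among null arrays, and Tgfbr1, Ltbp1 and Ltbp3 differed little. Each gene is represented here by its probe set with the highest mean. With all 18193 genes tested this way, 0.0715% of genes passed (limma, adjusted p under 0.05), 17.0% had an unadjusted p under 0.05 against 5 of the 10 Tgf-beta genes, 11.7% had every null array below every control array and 23.8% had no overlap in either direction. Among all 27 probe sets 0 passed, against 0.00222% of all probe sets; 9 had an unadjusted p under 0.05 (limma) against 15.0%, and 8 had every null array below every control array against 9.89%, with 22.0% of all probe sets free of overlap in either direction. The median difference of the 10 genes was -0.53, with 9 negative, while that of all genes was 0.03, with 8013 of 18193 negative. The 10 genes, and the gene lists used below, were chosen with earlier results of these data known. Counts set beside the shares of all genes are therefore a description and no independent test. Without null replicate 3, 4 of the 10 genes passed, namely Tgfb1, Tgfbr2, Ltbp4 and Tgfbi, but then 1536 genes passed in all, against 13 with all arrays; leaving out any 1 of the other 5 arrays gave 0 of the 10.

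**Figure D1:**
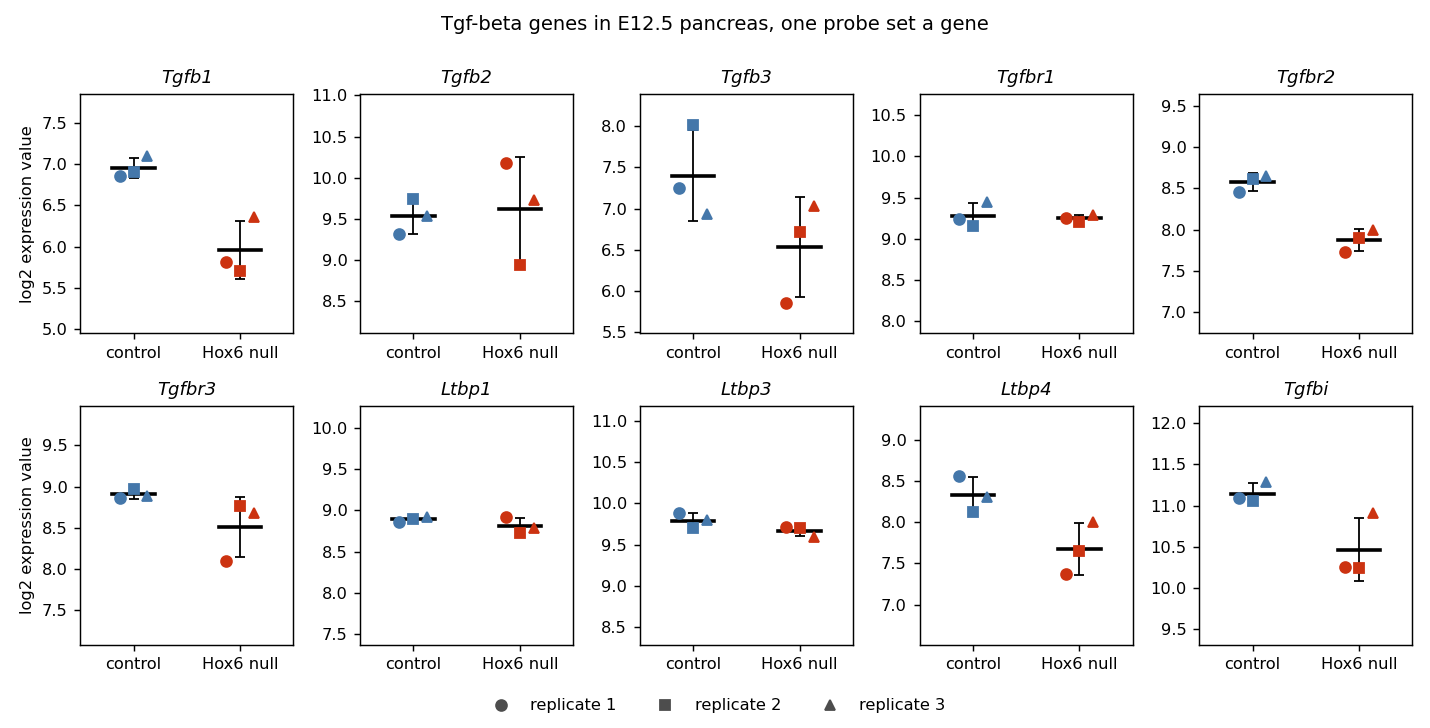
Log2 expression value (vertical axis, the same span of log2 units in every panel) of the 10 Tgf-beta genes, 1 probe set a gene, in 3 control (blue) and 3 Hox6 null (red) arrays; horizontal lines are means, error bars SD (n = 3) and symbols replicate numbers. Every null array lies below every control array for Tgfb1, Tgfbr2, Tgfbr3, Ltbp4 and Tgfbi, whereas the groups overlap for the other 5.

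The proximal promoters of Tgfb1, Tgfbr2 and Tgfbi are shown because these genes were lower in every null array and have a single start in the RefSeq promoter table (GRCm38.p6). Each line gives the 250 bases before the start, 5′ to 3′ on the gene's strand, with capitals for the Smad box CAGAC (reverse complement GTCTG) and the homeodomain core TAAT (reverse complement ATTA), searched on both strands; matches of one motif cannot overlap those of the other.
Tgfb1, chr7:25686752-25687001, plus strand: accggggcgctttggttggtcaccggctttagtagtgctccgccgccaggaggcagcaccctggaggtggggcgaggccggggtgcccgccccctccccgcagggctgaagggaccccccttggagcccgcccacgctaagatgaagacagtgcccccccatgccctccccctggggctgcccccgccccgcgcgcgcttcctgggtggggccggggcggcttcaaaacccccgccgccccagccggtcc
Tgfbr2, chr9:116175364-116175613, minus strand: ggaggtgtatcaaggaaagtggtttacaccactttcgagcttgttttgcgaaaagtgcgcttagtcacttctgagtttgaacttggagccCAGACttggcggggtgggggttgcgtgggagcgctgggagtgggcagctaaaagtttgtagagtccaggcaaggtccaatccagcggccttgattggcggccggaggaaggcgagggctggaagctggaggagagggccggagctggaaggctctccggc
Tgfbi, chr13:56609336-56609585, plus strand: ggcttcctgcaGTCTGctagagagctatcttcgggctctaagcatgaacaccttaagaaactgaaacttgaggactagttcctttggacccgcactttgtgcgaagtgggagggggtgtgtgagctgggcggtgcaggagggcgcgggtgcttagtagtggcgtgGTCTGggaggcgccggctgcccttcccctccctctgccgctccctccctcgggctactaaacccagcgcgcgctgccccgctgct
These windows held 0, 1 and 2 Smad boxes, in the order Tgfb1, Tgfbr2 and Tgfbi, and 0 homeodomain cores each. Over all 32851 windows of this length in the table, 42.19% held a Smad box and 54.92% a homeodomain core. The windows are rich in G and C, at 75.2% for Tgfb1, 58.4% for Tgfbr2 and 62.4% for Tgfbi, against a median of 52.4% over all windows. Promoter windows were matched for 8 of the 10 genes, all but Tgfb3 and Tgfbr3; these are letter matches in a short window and no measurement of binding.

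Among the ligands, Tgfb1 showed the largest mean difference of the 10 genes. Its brighter probe set (1420653_at) read 6.86, 6.91 and 7.09 in control replicates 1 to 3 and 5.81, 5.70 and 6.36 in null replicates 1 to 3. All 3 null arrays were below the lowest control, null replicate 3 by the smallest margin. The difference was -0.998 ± 0.183 (SE), a 2.0-fold lower level with a 95% interval of -1.42 to -0.57 on the log2 scale, and an adjusted p of 0.164 (limma). The second Tgfb1 probe set (1445360_at), a dim one, read 4.51, 4.66 and 5.14 in controls and 4.43, 4.67 and 5.47 in null arrays. It showed no separation, at +0.09 ± 0.29 (SE), and its correlation with the brighter one over the 6 arrays was 0.25. The lower level of Tgfb1 thus rests on 1 of 2 probe sets.

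Tgfb2, the ligand that depends most on betaglycan for binding, differed within the null group. Its brightest probe set (1450923_at) read 9.32, 9.75 and 9.54 in controls and 10.19, 8.94 and 9.73 in null arrays. Null replicate 1 was above and null replicate 2 below every control, while null replicate 3 lay within the controls. The 3 other probe sets gave the same order: null replicate 1 read 10.05, 9.71 and 9.19, null replicate 2 read 8.21, 7.60 and 7.79, and null replicate 3 read 8.60, 8.27 and 8.34, against control ranges of 8.57 to 8.79, 8.18 to 8.61 and 8.10 to 8.55. The 4 probe sets correlated with each other at 0.86 to 0.99 over the 6 arrays. Mean differences of the 4 were 0.09 to 0.30 with null arrays on both sides of the controls, and the widest 95% interval of the 4 ran from -0.93 to 1.30, with adjusted p between 0.752 and 0.905 (limma). Without null replicate 1 the difference of the brightest probe set was -0.20, and without null replicate 2 it was 0.43.

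Tgfb3, with 1 probe set (1417455_at), was lower on average but not in every array. It read 7.25, 8.02 and 6.94 in controls and 5.86, 6.71 and 7.03 in null arrays. Null replicate 3 lay above control replicate 3, and the SD within groups was 0.56 and 0.60 (n = 3 each). The difference was -0.87 ± 0.36 (SE) with an adjusted p of 0.323 (limma), -0.53 without null replicate 1 and -0.56 without control replicate 2.

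Among the receptors, Tgfbr2, which binds the ligand first, had the smallest unadjusted p of the 10 genes. Its brightest probe set (1426397_at) read 8.46, 8.62 and 8.66 in controls and 7.73, 7.90 and 7.99 in null arrays. The 3 null arrays lay close together and all below the lowest control. The difference was -0.70 ± 0.12 (SE), a 1.63-fold lower level, with a 95% interval of -0.98 to -0.43 and an adjusted p of 0.150 (limma); in the test with 1 probe set a gene the adjusted p was 0.0874. The second probe set (1425444_a_at) overlapped between groups, with 7.48, 7.48 and 7.79 in controls and 7.51, 7.35 and 7.48 in null arrays, a difference of -0.13 ± 0.12 (SE). The third (1422019_at) read 2.37 to 3.46 in all arrays, a level at which differences carry little weight. It differed by -0.56 ± 0.20 (SE), with overlap. All 3 differences were negative, but the lower level in every null array rests on the brightest probe set alone.

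Tgfbr1, the kinase that passes the signal to Smad proteins, showed no separation in any of its 3 probe sets. The brightest one (1420895_at) read 9.24, 9.16 and 9.45 in controls and 9.25, 9.21 and 9.29 in null arrays. Its difference was -0.03 ± 0.11 (SE), and those of the others were 0.11 ± 0.12 and -0.0001 ± 0.12 (SE); the 95% intervals of the 3 together span -0.30 to 0.40. A change larger than this span in either direction is outside the intervals, a smaller one is not.

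Tgfbr3, the betaglycan co-receptor, was lower in every null array by both of its probe sets. The first (1433795_at) read 8.86, 8.97 and 8.89 in controls and 8.10, 8.77 and 8.68 in null arrays. Null replicate 1 stood well below the others, and the difference of -0.39 ± 0.18 (SE) became -0.19 without it. The second (1425620_at) read 9.04, 8.82 and 8.78 in controls and 8.36, 8.42 and 8.48 in null arrays. Here the null arrays lay close together, with a difference of -0.46 ± 0.11 (SE). The adjusted p-values were 0.358 and 0.211 (limma).

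The latent binding proteins differed in pattern. Ltbp4, which binds latent Tgfb1 and also takes part in elastic fibre assembly, read 8.56, 8.13 and 8.30 in controls and 7.37, 7.65 and 8.01 in null arrays with its 1 probe set (1436665_a_at). All null arrays were below the lowest control, and null replicate 3 was closest to it. The difference was -0.66 ± 0.19 (SE), 1.58-fold, with an adjusted p of 0.235 (limma). Ltbp1, the founding member of this family, differed by -0.08 ± 0.10 (SE) in its brightest probe set, with control levels of 8.85 to 8.92 and null levels of 8.73 to 8.92. Its 2 dim probe sets read 5.21 to 5.55 and 2.15 to 2.91 over all arrays and also overlapped. Ltbp3 differed by -0.12 ± 0.10 (SE) in its brightest probe set, with 9.70 to 9.88 in controls and 9.60 to 9.71 in null arrays. Of its 3 other probe sets, 1 dim one (1456189_x_at) had null arrays of 4.16, 4.30 and 4.38 below the lowest control of 4.45. That probe set and the brightest one (1438312_s_at) are of kinds whose probes may also match other transcripts. All 4 Ltbp3 differences were negative, between -0.09 and -0.37. The difference in size between Ltbp4 and its relatives was not tested.

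Tgfbi, a secreted matrix protein named for its induction by Tgf-beta, was bright and was lower on average in all 4 probe sets. The brightest (1448123_s_at) read 11.10, 11.05 and 11.29 in controls and 10.25, 10.24 and 10.91 in null arrays. Null replicates 1 and 2 were far below the controls and null replicate 3 just below them. The difference was -0.68 ± 0.19 (SE), 1.60-fold, with an adjusted p of 0.235 (limma). The next probe set (1415871_at) had a difference of -0.80 ± 0.25 (SE), again without overlap. The other 2 gave -0.45 ± 0.16 and -0.33 ± 0.15 (SE), with null replicate 3 inside the control range. All of the 4 but 1415871_at are of kinds whose probes may also match other transcripts. The 4 probe sets correlated at 0.97 to 0.99 over the 6 arrays, so that they measured 1 pattern with different spans.

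**Figure D2:**
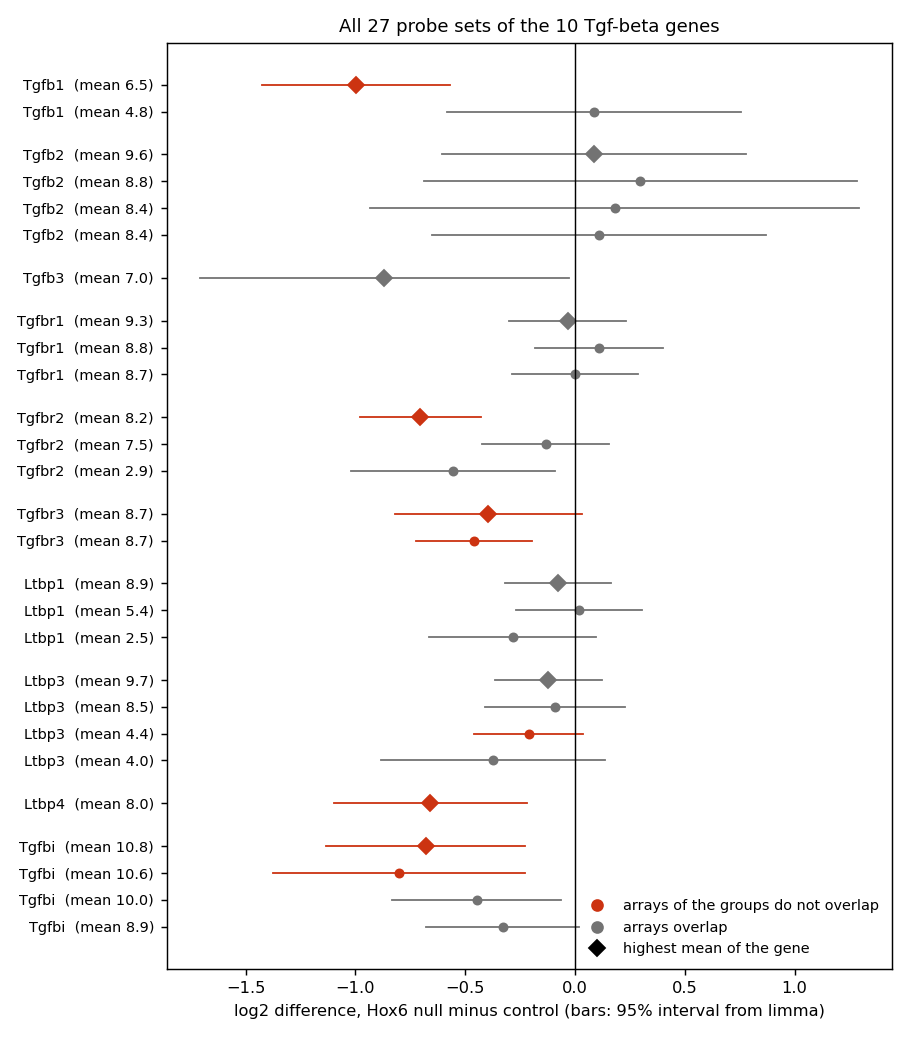
Log2 difference, Hox6 null minus control (horizontal axis), of all 27 probe sets of the 10 genes, with 95% intervals from limma over all probe sets; labels give the gene and the mean log2 level over all arrays, diamonds mark the brightest probe set of a gene and red marks the 8 whose groups do not overlap. The brightest probe sets of Tgfb1 and Tgfbr2 stand to the left of the dimmer ones of the same gene. The 4 of Tgfb2 lie right of 0 with wide intervals that cross 0. The 4 of Tgfbi lie left of 0, and the interval of the dimmest of them crosses 0.

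The null arrays differed among themselves for most of these genes. Relative to the control mean, Tgfb1 stood at -1.14, -1.25 and -0.60 in null replicates 1, 2 and 3, Tgfbi at -0.89, -0.91 and -0.24, and Ltbp4 at -0.96, -0.69 and -0.33. In these 3 genes null replicate 3 was nearest to the controls. Tgfbr2 was more even, at -0.85, -0.68 and -0.59.

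Markers of several cell types were lower in null arrays beside the lower Tgf-beta genes. Endothelial genes such as Cdh5 and Ramp2 were lower in every null array for 12 of 16 members, and their mean level was 8.28 to 8.39 in control and 7.59 to 7.99 in null arrays. The same held for 14 of 15 macrophage and leukocyte genes such as Csf1r, at 8.33 to 8.40 and 7.38 to 7.85. It held for 8 of 14 mesenchyme genes such as Col1a2, at 9.45 to 9.52 and 8.90 to 9.12. Mesothelial genes such as Upk3b were lower in every null array for 5 of 10, at 7.57 to 7.80 and 6.81 to 7.23. Of the 3 brightest mesothelial genes, Podxl and Aldh1a2 overlapped, at -0.41 ± 0.16 and 0.11 ± 0.29 (SE). Erythroid genes were lower in every null array for 5 of 9, at 9.25 to 9.32 and 8.48 to 8.99. Of the 3 brightest erythroid genes, Hba-x and Hbb-y overlapped, at -0.02 ± 0.14 and 0.08 ± 0.09 (SE). The third, Hbb-bh1, was lower in every null array, at -0.58 ± 0.21 (SE). Smooth muscle genes such as Acta2 were lower in every null array for 3 of 9, at 6.40 to 6.59 and 6.20 to 6.26. Of these 9, 3 were higher on average, and 1 of them, Synpo2, was higher in every null array, at 0.43 ± 0.20 (SE). Over all genes the share lower in every null array was 11.7%. The spleen primordium list, with 0 of 5 genes lower in every null array, read 8.41 to 8.78 in controls, 7.52 and 7.54 in null replicates 1 and 2 and 8.70 in null replicate 3. Of these lists Tek and Clec14a (endothelium) and Ctss and Adgre1 (macrophages) passed the test over all genes, as did the erythroid gene Hemgn, by -1.13, -0.92, -0.93, -1.35 and -1.68 with an adjusted p of 0.0417 each (limma, 1 probe set a gene). Epithelial genes were higher on average for 12 of 13, and in every null array for 4 of 13. All 10 pancreatic progenitor genes were higher on average, 5 of them in every null array. Of 7 neural crest and neuron genes, 5 were higher on average, and 2 were higher and 1 lower in every null array. Over all genes, 10180 of 18193 were higher on average, and the share higher in every null array was 12.2%. In whole organ RNA fewer cells of a type and less RNA per cell cannot be told apart. The mean level of the 13 epithelial genes was also entered as a covariate. The difference of Tgfbr2 was then -0.57, that of Tgfb1 -0.60, that of Ltbp4 -0.31, that of Tgfbi -0.24 and that of Tgfbr3 -0.17. Their adjusted p was 0.241, 0.251, 0.631, 0.627 and 0.846, in this order (limma, 1 probe set a gene). The part of the non-epithelial cell types in the lower levels was not tested.

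**Figure D3:**
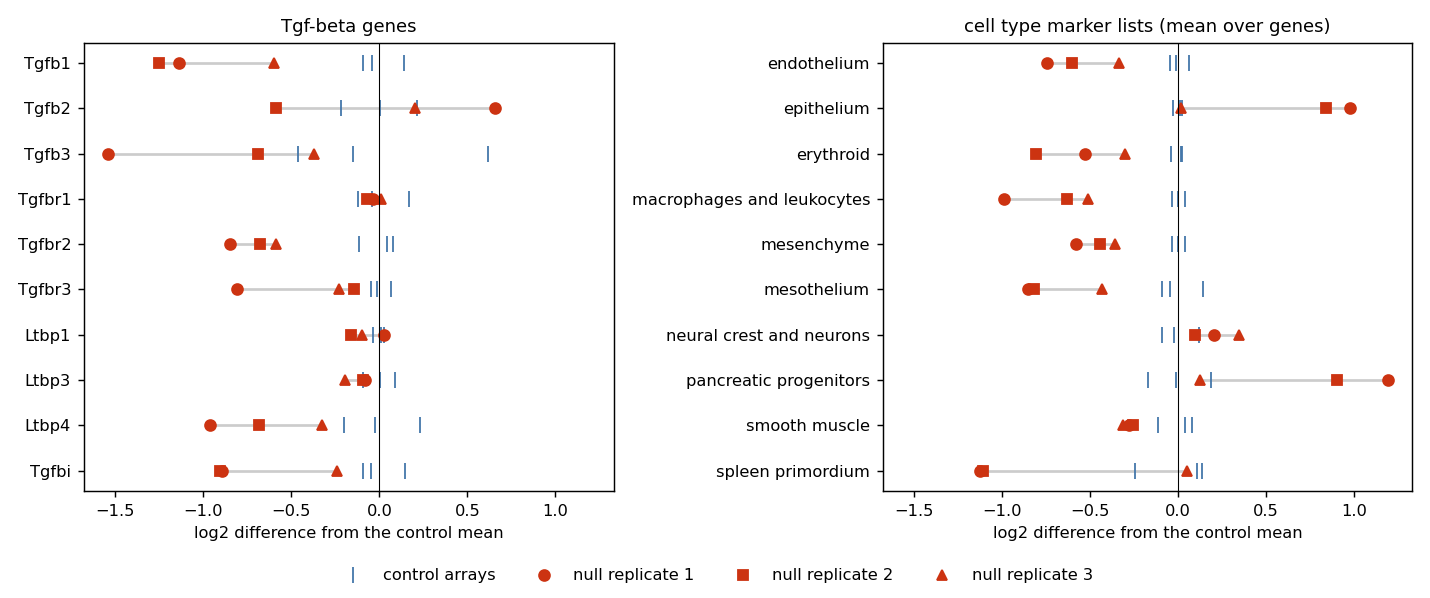
Log2 difference of each array from the control mean (horizontal axis), on the left for the 10 Tgf-beta genes and on the right for the mean level of 10 cell type marker lists; blue ticks are control arrays, and red symbols null replicates 1 (circle), 2 (square) and 3 (triangle). Endothelial, macrophage, mesenchyme, mesothelial, erythroid and smooth muscle lists lie below the controls in all 3 null arrays, and epithelial and pancreatic progenitor lists lie above them in null replicates 1 and 2 and within them in null replicate 3.

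Other genes of the pathway were taken in 4 lists, with 58 of 61 listed genes measured. None passed the test over all genes, and 17 had an unadjusted p under 0.05 (limma), against 17.0% of all genes. Of the 58, 45 were negative and 13 positive, with a median of -0.16. Over all genes 8013 of 18193 were negative, with a median of 0.03. Every null array lay below every control array for 23 of the 58, and above for 3, against 11.7% and 12.2% of all genes. Values of named genes that follow are from the test with 1 probe set a gene. Of the 16 genes named by rule, 14 had further probe sets, with the same sign in all of them for 12. Skil and Ppm1a had 1 of 2 and 6 of 8 probe sets with the same sign, the second Emilin1 probe set differed by -0.06 and the 2 further ones of Acta2, both dim, by -0.03 and -0.05. Those of Lox differed by -1.64 and, in a dim one, by -0.08.

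Of 13 genes of latency and activation, 10 were lower and 3 higher on average, with a median of -0.15. Emilin1, a matrix glycoprotein that restrains processing of the Tgfb1 precursor, read 9.45, 9.79 and 9.74 in controls and 8.68, 8.77 and 9.12 in null arrays, a difference of -0.80 ± 0.15 (SE). Itgb5, an integrin subunit that pairs with the alpha v subunit, read 9.14, 9.10 and 9.32 in controls and 8.60, 8.73 and 8.65 in null arrays, at -0.53 ± 0.10 (SE). Both had an adjusted p of 0.132 (limma). The microfibril gene Fbn2 differed by -0.36 ± 0.10 (SE), and Thbs1, whose product thrombospondin can activate latent ligand, by -0.30 ± 0.10 (SE). All 4 were lower in every null array. Furin, a protease that cleaves the ligand precursors, and Bmp1, a protease of matrix proteins, were higher in every null array, by 0.18 ± 0.10 and 0.15 ± 0.10 (SE), and were singled out after their values were seen.

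Of 11 co-receptors and signal transducers, 9 were lower on average, with a median of -0.17. The 4 with the smallest p were Eng, an endothelial co-receptor, at -0.24 ± 0.12 (SE), Smad2 at -0.18 ± 0.10 (SE), the focal adhesion adaptor gene Tgfb1i1 at -0.17 ± 0.10 (SE) and Acvrl1, an endothelial type I receptor, at -0.19 ± 0.11 (SE). Smad2 and Tgfb1i1 were lower in every null array, and Eng and Acvrl1 overlapped. The largest difference of the list, singled out after its value was seen, was that of the endocytic adaptor gene Dab2 at -0.45 ± 0.27 (SE), which read 10.30, 10.07 and 10.17 in controls, 9.33 and 9.48 in null replicates 1 and 2 and 10.39 in null replicate 3. No gene of this list had an unadjusted p under 0.05 (limma). Without null replicate 3, in which Dab2 was above every control, Dab2 passed the test over all genes. So did 1536 of 18193 genes in all, with 12 pathway genes among them.

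Of 12 inhibitors and feedback genes, 9 were lower on average, with a median of -0.12. Ski, a repressor of Smad-driven transcription, read 10.66, 10.72 and 10.68 in controls and 10.39, 10.44 and 10.50 in null arrays, at -0.24 ± 0.09 (SE). Its relative Skil stood at -0.24 ± 0.14 (SE). It had no overlap, but narrowly, with 8.887 in null replicate 1 and 8.891 in control replicate 3. The co-receptor Cd109 stood at -0.21 ± 0.13 (SE) and the phosphatase gene Ppm1a at -0.12 ± 0.10 (SE), both with overlap. Adjusted p-values of these 4 ran from 0.255 to 0.534 (limma).

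Of 22 genes that Tgf-beta is known to induce or repress in various cells, 17 were lower on average, with a median of -0.25, and 12 were lower in every null array. Lox, a cross-linking enzyme of collagen and elastin, read 6.91, 6.39 and 6.35 in controls and 5.04, 5.32 and 5.40 in null arrays. Its difference of -1.30 ± 0.18 (SE), 2.46-fold, had an adjusted p of 0.0711 (limma). Acta2, the smooth muscle actin gene, stood at -1.02 ± 0.20 (SE) and the matrix gene Postn at -0.65 ± 0.14 (SE). The matrix glycoprotein gene Tnc read 7.66, 9.32 and 9.05 in controls and 5.55, 5.57 and 7.32 in null arrays, at -2.53 ± 0.59 (SE), with null replicate 3 close to control replicate 1. The 1 gene higher in every null array was Cdkn1a, a cell cycle inhibitor gene, at 0.70 ± 0.22 (SE), likewise singled out afterwards. Its null replicate 3 was barely above control replicate 1, at 7.4975 against 7.4955. Among the 12 lower genes, Snai1 separated as narrowly, with 6.206 in null replicate 3 and 6.209 in control replicate 3. Of the 22 genes, 5 also belong to the marker lists of mesenchyme or smooth muscle (Col1a1, Col1a2, Col3a1, Acta2 and Tagln), and 4 of these 5 were among the 12.

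**Figure D4:**
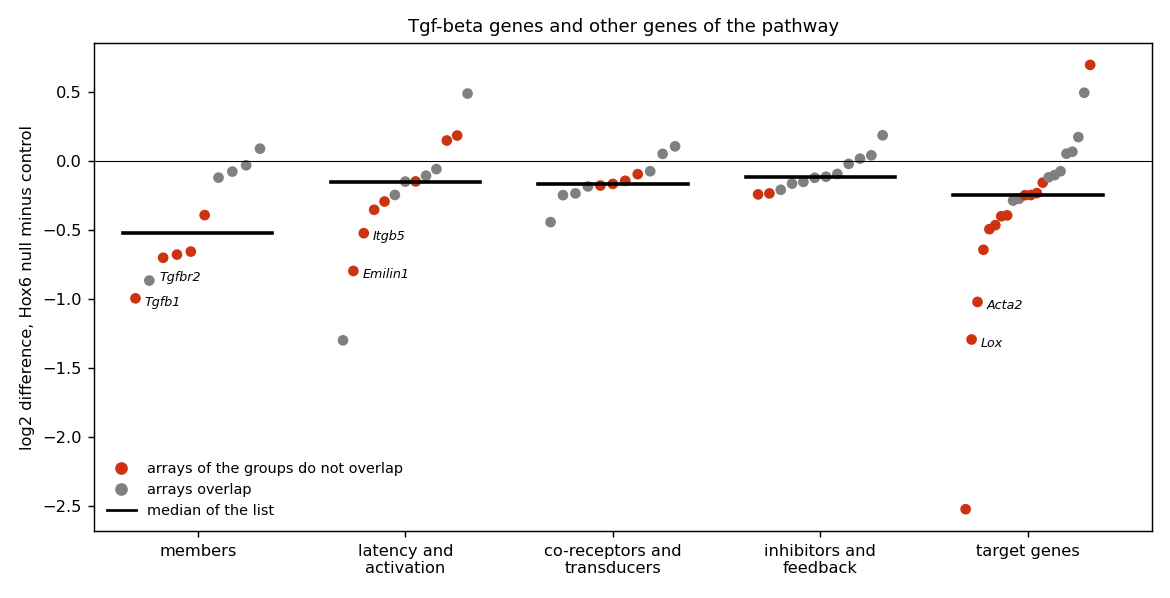
Log2 difference, Hox6 null minus control (vertical axis), of the 10 Tgf-beta genes and of the 58 other genes of the pathway in 4 lists, ordered by size within each; black lines are medians, and red points are genes whose groups do not overlap. The medians are -0.53 for the 10 genes, -0.15 for latency and activation, -0.17 for co-receptors and transducers, -0.12 for inhibitors and feedback and -0.25 for target genes.

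Profiles most like those of the 3 genes with the smallest p were sought by Pearson correlation over the 6 arrays among 9095 genes of above-median level. Tgfbr2 was most like Nip7, Prkca and Prkd2, with r of 0.995, 0.994 and 0.994. Tgfb1 was most like Apbb2, Myl9 and Fam172a, with r of 0.998, 0.997 and 0.996. Ltbp4 was most like Rgs5, a gene of pericytes, Tlx1, a transcription factor gene of the spleen primordium, and Col13a1, with r of 0.992, 0.992 and 0.991. With 6 arrays, 2 groups and this many genes, correlations of this size describe the likeness and carry no test; the 9 genes were all lower on average in null arrays, by 0.23 to 1.04 on the log2 scale.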

How the data were processed

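Per the labels' protocols, RNA from flash-frozen pancreata was amplified by the NuGEN WT-Pico Ovation method (input 10 ng) and labelled with biotin; per the submitters' processing notes, RMA, affy and limma were used, with no versions given. What was deposited are log2 values, 1 for each probe set and array; RMA sets them relative to the other arrays, and background compresses differences of dim probe sets. The table held 45101 probe sets, of which 64 array controls were left out; no filter on level was applied. Names came from the platform annotation (34945 with 1 gene symbol, 932 with several, 9160 with none listed; 34741 matched the RefSeq gene table by Entrez identifier). The array values name no genome build. A p-value here reflects the spread among the samples of a group; the number of arrays limits the precision, and with 3 against 3 an exact permutation p cannot go below 0.1.

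Genotype was the single term in limma 3.58.1 (lmFit and eBayes, R 4.3.3; two-sided, adjusted p under 0.05), run over 45037 probe sets and over 18193 genes, each by its probe set with the highest mean. The code was tested on simulated data. Genes were named by rule: the 10 genes with all probe sets, up to 4 genes of each pathway list by smallest p, and up to 3 genes of each marker list by level and any past the threshold. The genes and lists were chosen with earlier results of these data known. Alternatives changed the filter, normalization, variance prior, array weights, replicate block, epithelial covariate, probe set choice and arrays used.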

Additional observations from a re-analysis of the deposited data

How the results depend on the processing

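The counts of calls depended on the settings. With 1 probe set a gene, 13 genes passed in all; 1 did with the probe set of largest variance, 1 after repeated quantile normalization, 8 after median centring, 74 with an intensity trend and robust prior, 155 with array weights, 23 with the epithelial covariate, 70 without both null replicates 1 and 2 (the lone null array being assumed to vary like the controls) and 0 to 1536 when single arrays were left out. Over all probe sets 1 passed; the count was 16 above the median level, 0 after quantile normalization, 63 with the trend and robust prior, 41 with array weights, 12 with the covariate, 23 without both null arrays and 0 to 1902 without single arrays. Of the 10 Tgf-beta genes 1 passed with the trend and robust prior (Tgfbr2) and 2 with array weights (Tgfb1 and Tgfbr2), and 0 to 4 without single arrays; of their probe sets 0 to 5 passed without single arrays. Of the other pathway genes, 2 passed with the trend and robust prior (Emilin1 and Lox), 1 with array weights (Lox) and 0 to 12 without single arrays. Member probe sets without overlap went from 8 to 14 without both null arrays and to between 9 and 13 without single arrays; fewer arrays make overlap less likely by construction. The count of 5 genes with every null array below every control array, added after seeing the data, was 4 to 7 over the filter, probe set choice, normalization and left-out arrays; it was not recomputed for the other settings. The median of the 10 genes moved from -0.53 to -0.22 with the epithelial covariate, and was -0.23 without both null replicates 1 and 2 and -0.35 without null replicate 1.

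Of 26 genes recomputed under up to 16 settings, 24 kept their sign. Tgfbr1 turned to 0.026 with the mean over probe sets, 0.11 with the probe set of largest variance, 0.001 (0.00121) with the covariate, 0.01 (0.00846) without both null arrays, and ranged from -0.094 to 0.050 without single arrays. Tgfb2 turned to -0.12 with array weights and ranged from -0.20 to 0.43 without single arrays. The cause was not tested.

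With the replicate block 0 genes passed. Deviations from the group mean of arrays with the same number correlated at 0.16, -0.04 and 0.10. Control replicates 1 and 3 correlated best with the null array of their own number and control replicate 2 with null replicate 3. With 3 arrays a group these values neither show nor exclude that the numbers pair the samples. A dim probe set near background limits what can be read from it, as for 1422019_at of Tgfbr2 and 1447547_at of Ltbp1.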

Other observations

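Of the pathway genes not named by rule, the 2 with the largest differences were picked after their values were seen. Itgb3, an integrin subunit of platelets and vessels that pairs with the alpha v subunit, read 7.87, 8.45 and 8.17 in controls and 6.01, 6.59 and 7.98 in null arrays, at -1.30 ± 0.46 (SE) with an adjusted p of 0.250 (limma, 1 probe set a gene); null replicate 3 lay within the controls. Cdkn1a, a cell cycle inhibitor gene that Tgf-beta and p53 can induce, read 7.50, 7.04 and 7.26 in controls and 8.12, 8.26 and 7.50 in null arrays, at 0.70 ± 0.22 (SE) with an adjusted p of 0.217.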
